A study of Saccharomyces cerevisiae with 11 samples.

Results

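Polysome gradient fractions 2, 3 and 4 were set against fractions 5, 6 and 7, which makes 6 of the 11 libraries of the series. Each of the 6 is a TATL-seq library, in which the capped 5′ ends of mRNAs from a single gradient fraction were sequenced to give the length of the transcript leader, the stretch between cap and start codon. All 6 come from BY4742, a haploid S288C derivative of budding yeast with the alleles MAT α, his3Δ1, leu2Δ0, lys2Δ0 and ura3Δ0, taken at mid-log phase from YPAD, a rich glucose medium, at 30 °C. The labels give 1 gradient and no repeat of it, and they do not say at which end of the gradient the numbering starts. Fraction 1 was left out of the comparison and was used, like the TL-seq libraries of S288C (2 replicates) and of Sigma 1278b (1 library), to describe the ORFs found. A control TL-seq library of Sigma (1 library), made without pyrophosphatase, was used in the same way.

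An ORF was compared when it had a call in 2 or more fractions on each side, and 2105 of the 3464 ORFs called in any of the 6 fractions met this, out of 4551 ORFs in all 11 libraries. Of the 2105, 1523 had a call in all 6 fractions. The 4 genes that carry the deletion or mutant alleles, HIS3, LEU2, LYS2 and URA3, had no call in any of the 6 fractions. Of the 4551 ORFs 1087 had none there either, so these missing calls do not test the genotype. The mating type genes went partly against the MAT α label. The α-factor gene MF(ALPHA)2 was called in 5 fractions, but STE2, for the α-factor receptor that a cells make, had 26 nt in all 6, and AGA2, for an a-agglutinin subunit, was called in 4. Of the other a-specific genes MFA2 was called in 2 fractions, MFA1 and ASG7 in 1 each, and STE6 and BAR1 in none. The α-specific genes STE3, SAG1 and MF(ALPHA)1 had no call, and a call gives a length, not a level.

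The leader is the part of an mRNA that the small ribosomal subunit scans from the cap to reach the start codon. Many yeast genes start transcription at several sites, so that a gene can give mRNAs with leaders of different length. Upstream start codons and structure in a leader can lower translation, and in a sucrose gradient mRNAs sediment farther the more ribosomes they carry. Splitting the gradient and measuring leaders in each fraction therefore asks whether mRNAs with different leaders from the same gene sit at different places.

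Leaders were nearly alike on the 2 sides. The median over the ORFs compared was 34 nt in fractions 2 to 4, against 34 nt in fractions 5 to 7, and the median difference within an ORF was 0 nt. The medians of the sides were equal for 1311 ORFs (62.3%) and lay less than 10 nt apart for 1928 (91.6%). In 769 ORFs (36.5%) every fraction with a call gave the same length. Of the 10 histone genes compared 5 were of this kind, and the other 5 varied, by 1 nt for HTB1 and by up to 9 nt for CSE4. HTB2 had 18 nt, HHF1 36 nt, HHT1 24 nt and the variant HTZ1 95 nt in each of the 6 fractions. Over the 1523 ORFs called in all 6, the median leader was 32, 32 and 33 nt in fractions 2, 3 and 4, and 33, 33 and 32 nt in fractions 5, 6 and 7. The means of these medians were 32.3 nt ± 0.577 and 32.7 nt ± 0.577 (SD, n = 3 fractions each, two-sided exact permutation test, p = 1). With 3 fractions a side no such test can give a p below 0.1, and since the fractions come from 1 gradient, p-values here measure only the spread between these fractions. Very short and long leaders were as evenly spread. Of the 1523 ORFs, 213, 182 and 185 had a leader under 12 nt in fractions 2 to 4, against 188, 197 and 198 in fractions 5 to 7. A leader of 100 nt or more was found for 169, 173 and 173 ORFs in fractions 2 to 4 and for 171, 172 and 172 in fractions 5 to 7.

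**Figure D1:**
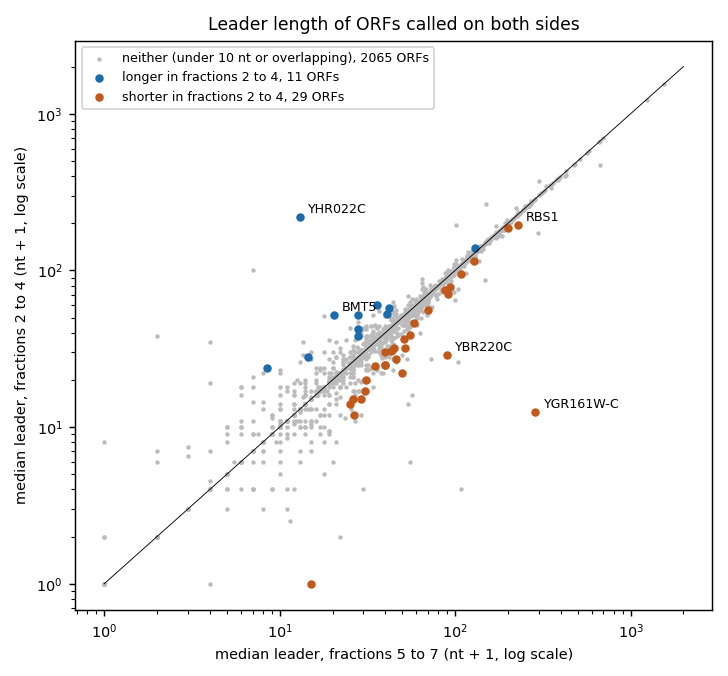
Median leader of each of the 2105 ORFs over fractions 2 to 4 (vertical) and over fractions 5 to 7 (horizontal), both in nt plus 1 on log scales, with the line of equal lengths. Most points lie on or near the line, and the 11 ORFs longer and 29 shorter in fractions 2 to 4 by at least 10 nt without overlap are coloured, with those that differ by 30 nt or more named.

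A single fraction differed from another by about as much within a side as across the sides. Among ORFs shared by 2 fractions, 9.98% (median of the 6 pairs within a side, range 8.94 to 14.1%) had lengths 10 nt or more apart, against 10.8% (lowest 8.40%) for the 9 pairs across the sides. The pair farthest apart was fractions 3 and 6, which lie on different sides, with 334 of 1968 shared ORFs at least 10 nt apart. The 2 closest pairs were also across the sides, fractions 2 and 7 (8.40%) and fractions 4 and 5 (8.42%). Fractions 2 and 3, on the same side, differed in 14.1%. The calls themselves overlapped to a similar degree, with a median of 71.4% of the ORFs of a pair shared within a side and 69.4% across.

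**Figure D2:**
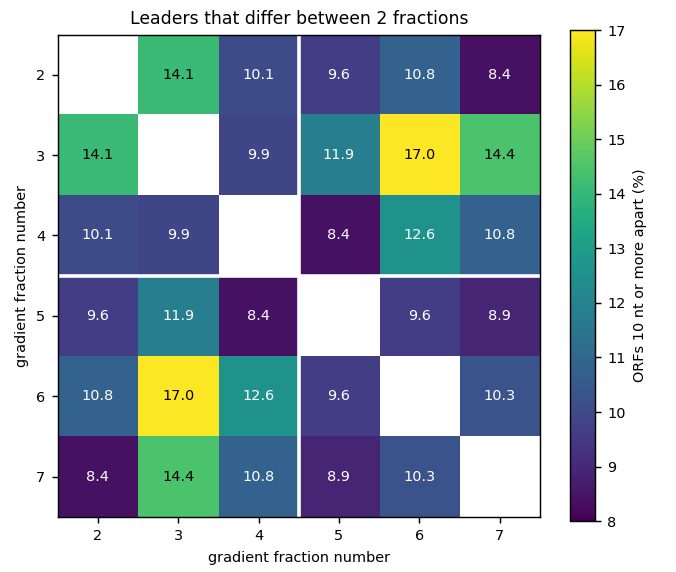
Percent of the ORFs called in both of 2 fractions whose leaders lie 10 nt or more apart, for each pair of the 6 fractions, with fraction numbers on both axes. White lines divide fractions 2 to 4 from fractions 5 to 7; the within-side blocks range from 8.94 to 14.1%, and the across-side block holds both the closest pair, fractions 2 and 7 at 8.40%, and the farthest, fractions 3 and 6.

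An ORF was called longer or shorter when the medians of the sides differed by at least 10 nt and no length of one side reached those of the other. By this rule 29 ORFs were shorter in fractions 2 to 4 (1.38% of those compared) and 11 were longer (0.523%), together 40 (1.9%). Only 12 of the 40 had a call in all 6 fractions, beside 1523 of the 2105 compared. With fewer calls there are fewer lengths that can overlap. This is a rule of size and not a test, since an exact permutation test over the fractions cannot pass for a single ORF. The differences were small: 23 of the 29 shorter and 7 of the 11 longer ORFs differed by less than 20 nt, with median sizes of 14 and 15.5 nt. Below 10 nt, a further 60 ORFs had no overlap between the sides, 18 longer and 42 shorter in fractions 2 to 4, so that 100 (4.75%) had none at any size. A limma fit on log2(length + 1) gave a Benjamini-Hochberg adjusted p under 0.05 for 8 of the 1336 ORFs with more than 1 length (0.599%), 7 shorter and 1 longer, all among the 40. Without adjustment 66 ORFs (4.94%) had p under 0.05 in limma. Leaving out fraction 2 gave the most calls: without it 32 ORFs were longer and 42 shorter, and limma called 27, whereas without fraction 3 the longer ORFs numbered 7. The ORFs gained without fraction 2 were 24 longer and 23 shorter. With 1 fraction fewer, no overlap is also easier to meet, and the shorter ORFs numbered 40 without fraction 5 and 40 without fraction 7. Of the 40, between 22 and 29 met the rule again when a single fraction was left out. Limma called 3 ORFs without fraction 4, 17 without fraction 5 and 18 without fraction 7.

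Of the ORFs with shorter leaders in fractions 2 to 4, the widest step was in YGR161W-C, a small ORF of 279 nt on chromosome VII (810227 to 810505 in assembly R64) without a gene name. It had 9 and 14 nt in fractions 3 and 4, against 286 nt in fractions 5 and 6 and 2 nt more in fraction 7, with no call in fraction 2. Fractions 5 to 7 agreed within 2 nt and stood far above the other side. The medians lay 274.5 nt apart (limma, log2 fold change -4.55 ± 0.191 SE, adjusted p = 0.00451). If the leader holds no intron, the longer 5′ end falls at position 809941, outside any annotated gene, and the shorter at 810216. In S288C TL-seq the ORF was called in 1 replicate, at 44 nt, the length of neither side but nearer to fractions 2 to 4.

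SET2, for the histone methyltransferase that marks transcribed chromatin, had 70 nt in fractions 3 and 4, against 90 nt in fractions 5, 6 and 7 (adjusted p = 0.0046, limma). The longer length was the nearer to its S288C TL-seq leader, 94 nt in both replicates. PHO2, for a homeodomain transcription factor that acts on phosphate and purine genes, had 31 nt in fractions 3 and 4, against 51, 51 and 57 nt in fractions 5 to 7. Its limma adjusted p was 0.0567, and its TL-seq leader, from 1 replicate, was 65 nt. PAP1, for the nuclear poly(A) polymerase, had 186 nt in each of fractions 2, 3 and 4, against 199 nt in each of fractions 5, 6 and 7 (adjusted p = 0.00451, limma). Fraction 1 also gave 186 nt, and Sigma TL-seq 199 nt, so that both lengths recurred outside the 6 fractions. NSL1, for a subunit of the kinetochore MIND complex, had 6, 21 and 24 nt in fractions 2 to 4, against 37 and 61 nt in fractions 5 and 6. AAR2, for a factor that assembles the U5 snRNP of the spliceosome, had 11 nt in fractions 3 and 4, against 27 and 24 nt in fractions 6 and 7.

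RBS1, a gene linked to RNA polymerase III assembly, had 196 and 194 nt in fractions 2 and 3, against 228 nt in fractions 5, 6 and 7 (adjusted p = 0.00451, limma). Its TL-seq leader was 194 nt in both S288C replicates, the length of the shorter side, while fraction 1 gave 228 nt. Both ends were thus seen in other libraries.

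MMF1, for a protein that maintains mitochondrial DNA and branched-chain amino acid synthesis, had 26 nt in each of fractions 2 to 4, against 45 nt in each of fractions 5 to 7 (adjusted p = 0.00144, limma). It was 1 of 6 called ORFs with a single length on each side, with GCD1, PAP1 and SET2 among the shorter and THG1 and ADP1 among the longer. PAM16, for a subunit of the motor that pulls proteins into the matrix, had 29, 24 and 24 nt in fractions 2 to 4, against 39 nt in each of fractions 5 to 7. The limma adjusted p was 0.0968. PAM16 was the only one of the 40 with a call in the Sigma library made without pyrophosphatase, at 46 nt, beside 49 nt in Sigma TL-seq. Of all ORFs compared, 181 (8.60%) had a call in that library. RSM25, for a protein of the small mitochondrial ribosomal subunit, had 55 nt in fractions 2 to 4, against 69, 72 and 56 nt in fractions 5 to 7, where fraction 7 missed the other side by 1 nt. Without fraction 5 or fraction 6 its difference was under 10 nt, at 9 and 7.5 nt. COA2, for a cytochrome c oxidase assembly factor, had 94 nt in fractions 2 and 4, against 107, 107 and 110 nt in fractions 5 to 7.

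SML1, for an inhibitor of ribonucleotide reductase, had 28, 24 and 24 nt in fractions 2 to 4, against 32, 39 and 45 nt in fractions 5 to 7. The 45 nt of fraction 7 equals its S288C TL-seq leader. AIP1, for a protein that helps cofilin take actin filaments apart, had 31 and 44 nt in fractions 2 and 3, against 54 nt in fractions 6 and 7. CAJ1, for a J-domain protein, had 72 and 82 nt in fractions 3 and 4, against 93 nt in fractions 5 and 7. Neither passed in limma (both adjusted p = 0.737). YBR220C had 34 and 22 nt in fractions 3 and 4, against 91 and 86 nt in fractions 5 and 7 (adjusted p = 0.322, limma).

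Apart from 2 members of the gene lists, GCD1 and NOP13, the other 12 shorter ORFs differed by 10 to 14.5 nt. YGR111W, an ORF without a given name, had 45 nt in fractions 2, 3 and 4, against 55, 57 and 57 nt in fractions 5 to 7 (adjusted p = 0.012, limma), with 33 nt in both S288C TL-seq replicates, below either side. The other 11 missed the threshold in limma. NAP1, for a histone chaperone, had 6, 0 and 0 nt in fractions 2 to 4, against 15, 9 and 14 nt in fractions 5 to 7, so that in fractions 3 and 4 the mRNA was called to begin at the start codon. RIF1, for a protein that limits telomere length, had 114 nt in fractions 2 and 4, against 126 and 129 nt in fractions 5 and 7. ARP7, for an actin-related subunit of the SWI/SNF and RSC remodellers, had 29 and 30 nt in fractions 2 and 4, against 42 nt in fractions 5 and 6. None of the 3 overlapped between the sides, but in NAP1 fractions 2 and 6 came within 3 nt of each other.

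SPE2, for the decarboxylase that feeds polyamine synthesis, had 13, 17 and 13 nt in fractions 2 to 4, against 24 nt in fractions 5, 6 and 7, and the 24 nt recurred in Sigma TL-seq. RCN1, for a regulator of calcineurin, had 22 and 6 nt in fractions 3 and 4, against 25 nt in fractions 5, 6 and 7 and in Sigma. YPR148C had 26 and 32 nt in fractions 3 and 4, against 39 nt in fractions 5, 6 and 7, also the Sigma length. For these genes fractions 5 to 7 held 1 length while fractions 2 to 4 varied. DSK2, for a ubiquitin receptor of the proteasome, had 16, 20 and 16 nt in fractions 2 to 4, against 25 and 34 nt in fractions 6 and 7. GRX6, for a glutaredoxin of the secretory pathway, had 31 nt in fractions 2 and 4, against 44, 32 and 46 nt in fractions 5 to 7, where fraction 6 missed the other side by 1 nt. PTK2, for a protein kinase that acts on the plasma membrane proton pump, had 70 and 78 nt in fractions 2 and 3, against 81, 87 and 87 nt in fractions 5 to 7. In these genes both sides varied or nearly met. DBF20, for a kinase of late mitosis, had 26 and 21 nt in fractions 2 and 3, against 30 and 38 nt in fractions 6 and 7. ECM15 had 33 and 38 nt in fractions 2 and 3, against 50, 44 and 50 nt in fractions 5 to 7.

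The 11 ORFs with longer leaders in fractions 2 to 4 were led by YHR022C, a gene without a given name, but its lengths spread widely. It had 305 and 134 nt in fractions 3 and 4, against 12 nt in fractions 5 and 7 (adjusted p = 0.204, limma). Each longer length recurred elsewhere, 305 nt in fraction 1 and 134 nt in both S288C TL-seq replicates. BMT5, for a methyltransferase of the 25S rRNA, had 23 and 79 nt in fractions 2 and 3, against 21 and 18 nt in fractions 5 and 6. Here the difference of 31.5 nt rested on fraction 3. SLX4, for a subunit of a DNA repair endonuclease, had 62 and 57 nt in fractions 3 and 4, against 33, 35 and 37 nt in fractions 5 to 7 (adjusted p = 0.0569, limma).

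THG1, for the enzyme that adds a guanylate to histidine tRNA, showed the cleanest step of the longer group and the lowest p of all ORFs. It had 51 nt in each of fractions 2, 3 and 4, against 27 nt in each of fractions 5, 6 and 7 (limma, log2 fold change 0.89 ± 0.0298 SE, adjusted p = 0.000952). Fraction 1 gave 27 nt, while S288C TL-seq had 4 nt in both replicates and Sigma 3 nt, below either side. Its longer 5′ end, at position 532647 of chromosome VII, lies within the annotated ORF YGR025W, and it was the only called ORF whose end fell inside another gene (2.5%, against 0.475% of all ORFs compared).

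Further longer ORFs differed by 10 to 15.5 nt. LDH1, for a hydrolase of lipid droplets, had 61 and 52 nt in fractions 3 and 4, against 44, 41 and 41 nt in fractions 5 to 7. STF1, for a protein tied to inhibition of the mitochondrial ATP synthase, had 72, 52 and 52 nt in fractions 2 to 4, against 40, 21 and 44 nt in fractions 5 to 7. ADP1, for a putative ABC transporter, had 139 nt in fractions 2, 3 and 4, against 129 nt in fractions 6 and 7, and its TL-seq leader was 129 nt in both S288C replicates. In LDH1 and STF1 each fraction of a side kept clear of the other side by at least 8 nt. GAS5, for a cell wall glucanosyltransferase, had 40, 36 and 37 nt in fractions 2 to 4, against 27 nt in fractions 5 and 7, and without fraction 2 its difference was 9.5 nt. In NEW1, for an ABC protein that acts in translation termination, fractions 2 and 4 had 47 and 35 nt and fractions 6 and 7 had 22 and 32 nt. AIM36 had 26, 27 and 27 nt in fractions 2 to 4, against 12 and 15 nt in fractions 6 and 7. The 2 sides of NEW1 came within 3 nt of each other, whereas those of AIM36 and SHE10 stood at least 10 nt apart. SHE10 had 21 and 25 nt in fractions 3 and 4, against 4 and 11 nt in fractions 5 and 6. At the limit of the rule, ADP1, GAS5, YPR148C and DBF20 lay just inside at 10 to 10.5 nt, and YDL085C-A, RSM28, RBP95 and RPS30A just outside at 9 to 9.5 nt.

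**Figure D3:**
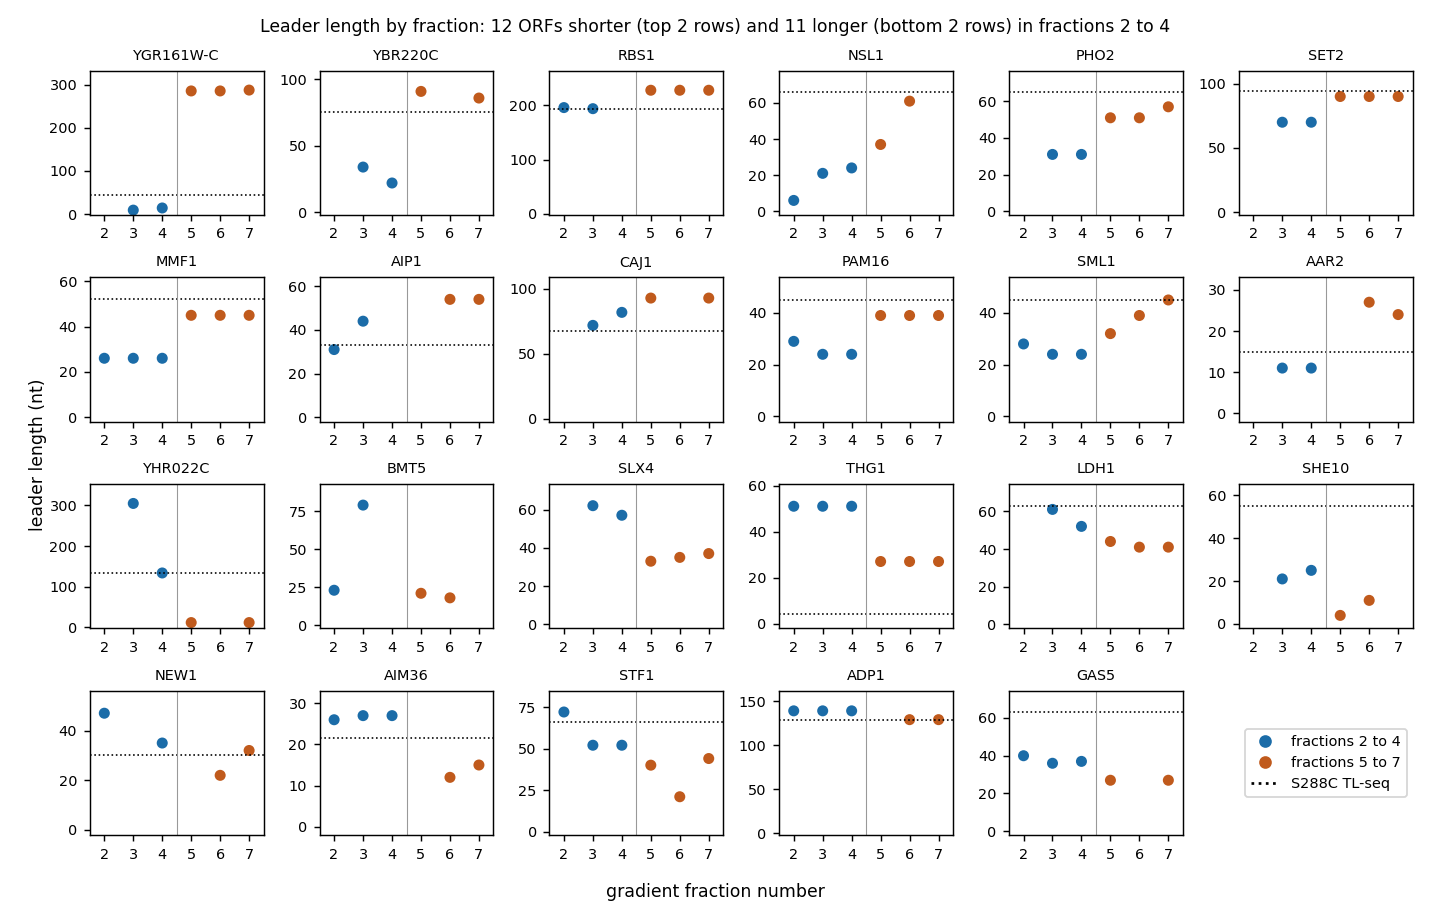
Leader length (nt, vertical, a scale per panel) in each gradient fraction (horizontal) for 12 ORFs shorter and the 11 ORFs longer in fractions 2 to 4; a missing point is a fraction without a call, and the dotted line is the mean of the S288C TL-seq replicates with a call. MMF1, with 26 nt against 45 nt, and THG1, with 51 nt against 27 nt, hold 1 length on each side, whereas YHR022C and BMT5 spread widely within fractions 2 to 4.

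A larger number of ORFs had medians 10 nt or more apart with lengths that overlapped between the sides. There were 137 of these, 77 lower and 60 higher in fractions 2 to 4, so that 177 ORFs (8.41%) differed by 10 nt when overlap was allowed. In 4 of them the medians were 100 nt or more apart, and they were named after their values were seen. RGI1, a respiratory growth gene, had 49 and 295 nt in fractions 3 and 4, against 295 nt in fractions 6 and 7. MIH1, for the phosphatase that activates the cell cycle kinase, had 266 nt in fractions 2 and 4, against 30 and 266 nt in fractions 6 and 7. IZH2, for a membrane protein of zinc homeostasis, had 3 nt in fractions 3 and 4, against 3 and 211 nt in fractions 5 and 6. YOL163W had 668 and 270 nt in fractions 2 and 4, against 668 and 662 nt in fractions 6 and 7. In each of the 4, 1 fraction alone made the difference.

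Gene lists of 16 pathways and complexes were counted against these shares. In 12 of them no member was called in either direction, and the other 4 held 1 shorter ORF each. The lists covered 403 of the ORFs compared and 4 of the 40 called. No member of any list was called longer.

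Among genes for the machinery of translation, most ribosomal protein genes but fewer translation factor genes had equal medians on the sides. None of 108 cytosolic ribosomal protein genes was called, and 78 of them had equal medians, with a list median of 17 nt in fractions 2 to 4, against 17 nt in fractions 5 to 7. Unequal medians were higher in fractions 2 to 4 for 7 of these genes and lower for 23, beside 348 higher and 446 lower among all ORFs compared. The lowest difference was that of RPS6A, with 146 and 26 nt in fractions 2 and 3, against 146 nt in fractions 6 and 7. RPL24B had 399, 406 and 406 nt in fractions 2 to 4, against 430, 430 and 406 nt in fractions 5 to 7, and overlapped likewise. How reads of paired ribosomal protein genes were shared, and whether introns count in these long leaders, is not stated in the sources used here. Of 23 translation factor genes 1 was shorter, GCD1, for a subunit of eIF2B, the exchange factor that recycles eIF2. It had 19 nt in each of fractions 2, 3 and 4, against 30 nt in each of fractions 5, 6 and 7 (adjusted p = 0.00451, limma). Equal medians were found for 34.8% of the 23 factors and 72.2% of the 108 ribosomal protein genes, beside 62.3% of all ORFs compared. These shares were not tested. Among the factors other than GCD1, 12 had a higher median in fractions 2 to 4, 2 a lower one and 8 the same, and none of the 12 passed the rule.

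In 8 of these 12 genes fraction 2 held a length that was also found in fractions 5 to 7, and in RLI1 fraction 2 had no call. Over all ORFs shared, fraction 2 had the same length as fractions 5, 6 and 7 in 67.2%, 66.3% and 69.6%. Each of those shares is for a single fraction and includes ORFs with equal medians. They cannot be set beside the 8 genes, whose match was to any of fractions 5 to 7. Whether the 8 genes are set apart by this was not tested. GCD7, TIF6 and SUP35 had the widest differences among the 8. GCD7, for another eIF2B subunit, had 32, 43 and 47 nt in fractions 2 to 4, against 32 nt in fractions 5, 6 and 7. TIF6, for a factor that keeps ribosomal subunits apart, had 91, 98 and 99 nt in fractions 2 to 4, against 91, 91 and 97 nt in fractions 5 to 7. SUP35, for the release factor eRF3, had 22, 36 and 36 nt in fractions 2 to 4, against 42, 22 and 27 nt in fractions 5 to 7. RLI1, a ribosome recycling factor, had 62 nt in fractions 3 and 4, against 54 nt in fractions 5 to 7, without overlap but under 10 nt.

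Of 47 mitochondrial ribosomal protein genes RSM25 was the 1 shorter ORF. MRPS16 had 13 nt in fractions 2, 3 and 4, against 53, 53 and 13 nt in fractions 5 to 7, where fraction 7 overlapped. Of 16 mitochondrial import genes PAM16 was shorter. Among 43 ribosome biogenesis genes NOP13, for a nucleolar RNA-binding protein, was shorter, with 14, 22 and 14 nt in fractions 2 to 4, against 28 nt in fractions 5, 6 and 7 (adjusted p = 0.365, limma). Each list's share of called members is to be read beside the 1.9% of all ORFs compared, and single members do not set a list apart.

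Characterised upstream ORFs are short reading frames in a leader that act on translation, and 6 of 23 genes listed with them could be compared. No sequence was at hand to check that the called leaders hold these frames. All 6 genes had equal medians, beside 62.3% of all ORFs compared. They were CLN3, for a G1 cyclin, 321 nt, YAP1, for an oxidative stress regulator, 145 nt, MBR1 74 nt, SPT10 63 nt, LEU4 52 nt and SCO1 13 nt. Single fractions departed from this only in CLN3, with 323 nt in fraction 6, and in SCO1, with 26 nt in fraction 4. The 6 genes compared of the pheromone list were also equal, such as STE4, for the G protein β subunit, at 166 nt and FAR1, for the cell cycle arrest factor, at 50 nt in every fraction with a call.

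In metabolism, 8 of 9 glycolytic genes had equal medians, with TDH3 at 39 nt and TDH1 at 70 nt in every fraction with a call. PFK1, for phosphofructokinase, had 234 and 227 nt in fractions 2 and 3, against 234 nt in fractions 5 and 6. None of 30 amino acid synthesis genes was called, nor any of 14 ergosterol genes or 26 respiration genes. In the respiration list INH1, for the inhibitor of ATP synthase, had 156, 113 and 113 nt in fractions 2 to 4, against 135, 154 and 135 nt in fractions 5 to 7. In the amino acid list HOM6 had 18 and 52 nt in fractions 2 and 3, against 18 nt in fractions 5 and 6. Neither were any of 23 proteasome, 29 early secretory, 10 chaperone, 10 histone and 5 tRNA synthetase genes called.

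**Figure D4:**
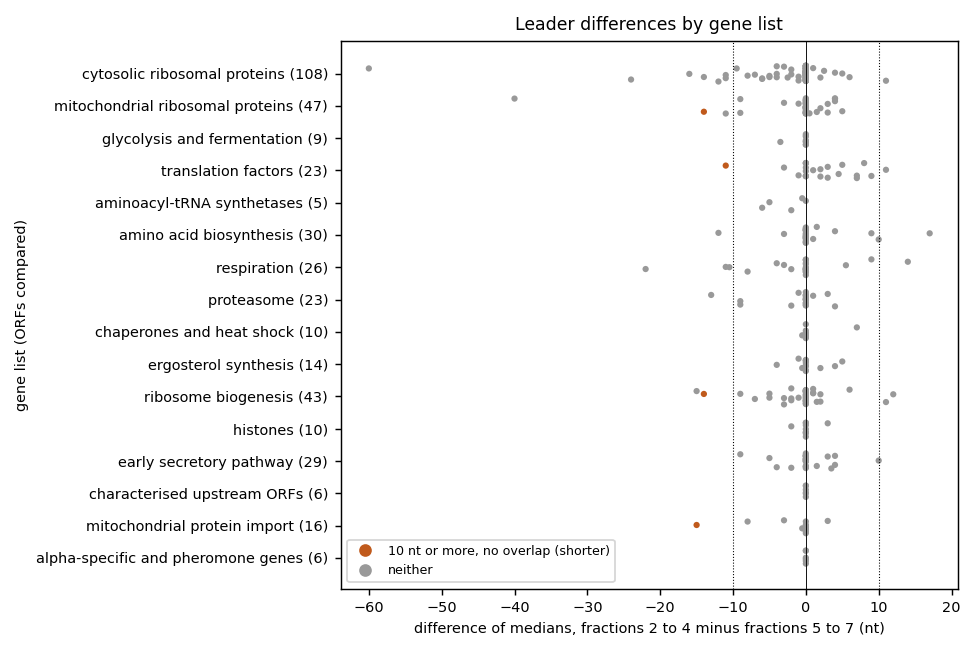
Difference of medians (nt, fractions 2 to 4 minus fractions 5 to 7) for each compared member of 16 gene lists, 1 point per ORF with vertical jitter; dotted lines mark 10 nt in either direction. The 4 coloured points, RSM25, GCD1, NOP13 and PAM16, are the members called shorter, and most grey points lie at or near 0.

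The lengths in libraries outside the 6 fractions were set beside the differences. S288C TL-seq lay nearer to the longer of the sides for 25 of 38 called ORFs with a TL-seq call, namely 19 of 29 shorter and 6 of 9 longer ones. A similar share was seen over all ORFs with unequal medians, 500 of 725 (69.0%), and TL-seq leaders ran longer in general, by a median of 4 nt over the longer side. Fraction 1 lay nearer to fractions 2 to 4 for 16 of 20 called ORFs (80.0%), against 342 of 519 ORFs with unequal medians (65.9%). Sigma TL-seq went the other way, nearer to fractions 5 to 7 for 10 of 16 called ORFs (62.5%) and for 345 of 496 with unequal medians (69.6%). In Sigma this held for ORFs with a lower median in fractions 2 to 4 (195 of 278) and for those with a higher one (150 of 218).

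Per fraction, the same was measured on ORFs called in all 6 fractions and in the library compared. For S288C TL-seq the length was the mean of the 2 replicates, and ORFs whose replicates lay 10 nt or more apart were left out. Of 1167 ORFs, 46.1%, 37.8% and 41.2% had exactly the Sigma length in fractions 2, 3 and 4, against 46.8%, 54.3% and 47.1% in fractions 5, 6 and 7. The sides did not overlap, though fractions 2 and 5 were close. The means were 41.7% ± 4.18 and 49.4% ± 4.26 (SD, n = 3 each, two-sided exact permutation test, p = 0.1, the smallest possible, adjusted p = 0.3 over 9 measures). For fraction 1, 59.1%, 57.2% and 59.8% of 1221 ORFs had its exact length in fractions 2 to 4, against 56.2%, 49.1% and 55.8% in fractions 5 to 7. These means were 58.7% ± 1.31 and 53.7% ± 4.00 (SD, n = 3 each, exact permutation p = 0.1, adjusted p = 0.3). Within 10 nt in place of exactly, the sides overlapped in both measures (exact permutation p = 0.2 for Sigma and p = 0.3 for fraction 1). Fraction 6 stood at an end of both orders, nearest to Sigma and farthest from fraction 1. Lengths within 10 nt of S288C TL-seq were found for 60.7%, 62.3% and 61.0% of 1188 ORFs in fractions 2 to 4 and for 62.9%, 63.0% and 62.9% in fractions 5 to 7 (exact permutation p = 0.1, adjusted p = 0.3). Exactly the mean S288C length was rare, with 2.19%, 2.78% and 2.53% in fractions 2 to 4, against 2.69%, 2.36% and 2.27% in fractions 5 to 7. By this measure the sides overlapped (exact permutation p = 0.9). All shares lay far below those for the exact Sigma length, which is that of 1 library and not a mean of replicates.

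A second question was which ORFs were called on 1 side only. In all, 28 ORFs had a call in each of fractions 2, 3 and 4 and none in fractions 5 to 7, which is 1.55% of the 1803 ORFs called in all 3. The reverse held for 30 ORFs, 1.62% of the 1856 called in all of fractions 5 to 7. These 58 were 17.4% of the 334 ORFs called in exactly 3 of the 6 fractions, and the other 276 had calls on both sides. Leaving out any 1 of the 6 fractions gave between 42 and 82 ORFs of the first kind and between 45 and 76 of the second. Fewer calls or fewer missing calls are then asked for, so these counts could not fall below 28 and 30. The files do not hold read numbers, so a missing call cannot be read as absence of the mRNA, and fewer reads and fewer molecules cannot be told apart.

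Of the ORFs with calls in fractions 2 to 4 only, 1 was in a gene list, CYC7, for an isoform of cytochrome c, with 167, 78 and 78 nt. NDC1, a nuclear pore and spindle pole body membrane protein gene, had 12 nt in each of fractions 2, 3 and 4, against 43 nt in both S288C TL-seq replicates. POM34, for another pore membrane protein, had 63, 65 and 65 nt. RSC9, for a subunit of the RSC chromatin remodeller, had 44 nt in fractions 1 to 4, and ITC1, for a subunit of the ISW2 remodeller, 164, 166 and 164 nt. CHO1, for phosphatidylserine synthase, had 3, 13 and 11 nt. HEM13, for a heme synthesis enzyme, had 39 nt in each of fractions 1 to 4 and 44 nt in both TL-seq replicates. SPF1, for a P-type ATPase of the endoplasmic reticulum, had 19, 20 and 19 nt, and HIT1, for a snoRNP assembly factor, 18, 19 and 18 nt. EMP65 had 74, 74 and 64 nt, and RRB1, for a chaperone of a ribosomal protein, 0, 10 and 9 nt, against 30 nt in TL-seq. Within this group 7 ORFs had the same length in all 3 fractions and 9 had a range of 10 nt or more. The longest leaders were those of BSP1, with 599, 612 and 610 nt, and RAD50, for a DNA double-strand break repair protein, with 481, 497 and 497 nt. YBL005W-B, with 364, 369 and 383 nt, is a Ty element ORF with many near-identical copies, so its assignment is uncertain.

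Of the ORFs called in fractions 5 to 7 only, 3 were in gene lists, 1 each in 3 lists: TIF5, SEC10 and THR4. TIF5, for eIF5, which triggers GTP hydrolysis by eIF2 at the start codon, had 90 nt in each of fractions 5, 6 and 7 and in Sigma TL-seq. HAC1, for the transcription factor of the unfolded protein response, had 9, 8 and 8 nt, far below the 67 nt of both S288C TL-seq replicates. TRS31, for a TRAPP subunit, had 80 nt in fractions 5, 6 and 7 and in fraction 1. BRO1, for an endosomal sorting factor, had 60 nt in each, and SEC10, for an exocyst subunit, 3, 0 and 3 nt. ALT1, for alanine transaminase, had 202 nt in each against 222 nt in TL-seq, and THR4, for threonine synthase, 40, 39 and 39 nt against 42 nt. MRS3, for a mitochondrial iron carrier, had 72 nt in each, JJJ3, for a factor of diphthamide synthesis, 101 nt in each, SDS3, for a subunit of a histone deacetylase complex, 38, 38 and 33 nt, and ELP2, for an Elongator subunit, 21, 21 and 27 nt. In this group 11 ORFs had the same length in all 3 fractions. TIF5, LSM1, for an mRNA decay factor, at 130 nt, and INO80, for a chromatin remodeller, at 210 nt, were chosen after their values were seen.

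The one-sided ORFs differed from other ORFs in how often other libraries called them. Both S288C TL-seq replicates called 12 of the 28 ORFs of fractions 2 to 4 (42.9%) and 15 of the 30 of fractions 5 to 7 (50.0%), against 168 of the 276 ORFs called in 3 fractions of both sides (60.9%). Fraction 1 called 14 of the 28 (50.0%) but 6 of the 30 (20.0%), and 97 of the 276 (35.1%). Sigma TL-seq called 4 of the 28 (14.3%) but 13 of the 30 (43.3%), and 94 of the 276 (34.1%). Fraction 1 thus called a larger share of the first group and Sigma a larger share of the second, the same order as for the lengths, and these shares were not tested. Of 28 ORFs 8 were called in no library outside fractions 2 to 4, as were 4 of the 30 outside fractions 5 to 7.

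An ORF of 3000 nt or more was found in 6 of the 28 (21.4%) and in 4 of the 30 (13.3%), against 11 of the 276 (3.99%), shares that were not tested. The median ORF was 1327.5 nt long in the first group, 1093.5 nt in the second and 1330.5 nt in the 276, which does not follow the order of those shares. Over all ORFs called in a fraction, the median ORF length was 1041, 1026 and 1017 nt in fractions 2 to 4, against 1020, 1041 and 1059 nt in fractions 5 to 7 (means 1028 ± 12.1 and 1040 ± 19.5 nt, SD, n = 3 each, exact permutation p = 0.5, adjusted p = 0.9).

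**Figure D5:**
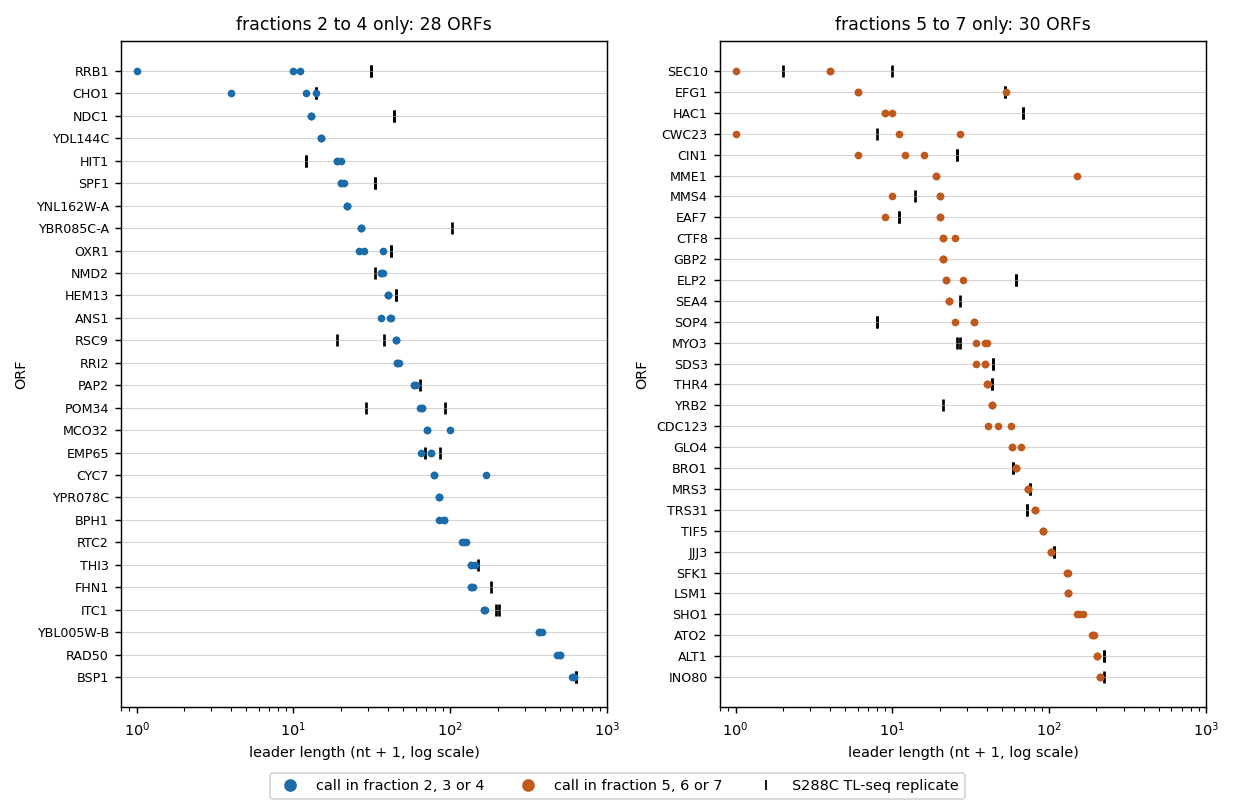
Leader length (nt plus 1, log scale) of the 28 ORFs called in all of fractions 2 to 4 and none of 5 to 7 (left) and of the 30 called the other way (right), with 1 point per fraction and black ticks for S288C TL-seq replicates. The lengths of an ORF span 10 nt or more in 9 of the 28 and 8 of the 30, and HAC1, with 8 to 9 nt, and NDC1, with 12 nt, lie well below their TL-seq ticks at 67 and 43 nt.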

How the data were processed

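TATL-seq and TL-seq libraries of Saccharomyces cerevisiae were sequenced by the authors from capped 5′ ends of poly(A)-selected RNA, per the labels' protocols. The submitters' processing notes name Bowtie for all libraries and the build sacCer3 for the gradient and Sigma libraries. Its version, the annotation and the rule behind each single length are not stated there. Each deposited file holds a gene and a leader length in nt, another kind of value than counts, with no reads, so depth is unknown and no counting intervals were made. The 57 snoRNA and tRNA names were left out. All 4551 ORF names matched locus tags of RefSeq assembly R64, whose genomic spans gave ORF lengths.

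Fractions 2 to 4 and 5 to 7 were taken as the sides. Fractions of 1 gradient are not replicates, so p-values measure only the spread between these fractions. The members, lists, rule and tests were chosen with earlier results of these data known. Agreement of single fractions with Sigma, fraction 1 and S288C TL-seq was added after values had been seen. Named ORFs were the 12 with the largest differences in each direction, called members of the lists, and 10 one-sided ORFs per side with the smallest range among those called in both S288C replicates. Others named were chosen after their values were seen, as were all list members that were not called. The limma fit (version 3.58.1, R 4.3.3, trend and robust options, pseudocount 1 nt) was adjusted by Benjamini-Hochberg over 1336 ORFs with more than 1 length; a fold change is on the log2(length + 1) scale. Exact permutation tests used scipy 1.17.1. Alternatives were the size limit, means, calls needed, overlap, fraction 1, pseudocounts and leaving out each fraction.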

Additional observations from a re-analysis of the deposited data

How the results depend on the processing

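Neither leaving out a fraction nor taking the mean of a side could turn the direction of a named ORF. The rule sets this in advance, since no length of one side reached those of the other. Only the limit of 10 nt could be missed. In these runs 26 named ORFs gave 127 values that still met the rule. A further 3, of RSM25 and GAS5, did not, counted only where an ORF could still be compared. With fraction 1 put with fractions 2 to 4, 44 ORFs met the rule and 4 of the 40 were lost. Among the lost were THG1, RBS1 and SML1, named ORFs whose fraction 1 length was also found in fractions 5 to 7. Leaving out 1 fraction lost 11 to 18 of the 40 calls, 18 without fraction 3 or fraction 4, and fewer ORFs could then be compared (1803 to 1883). With a limit of 5 nt, 19 ORFs were longer and 44 shorter in fractions 2 to 4, with 20 nt 4 and 6, with calls in all 3 fractions of each side 2 and 10, with overlap allowed 71 and 106, and by limma 1 and 7. Apart from limma, each of these settings could only raise or only lower the counts by construction. With calls in all 3 fractions of each side, 1523 of the 2105 ORFs were still compared, but 28 of the 40 calls were lost. Those 28 ORFs had a missing call in at least 1 fraction. Without single fractions the longer ORFs ranged from 7 to 32, the shorter from 21 to 42, and the limma count from 3 to 27. The 27 came without fraction 2, 17 without fraction 5, 18 without fraction 7 and 3 without fraction 4; the cause was not tested. Without fraction 2, 47 ORFs not among the 40 met the rule, 24 longer and 23 shorter, while 13 of the 40 were lost and 27 shared. Other limma settings gave 8 or 9.

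The ORFs called on 1 side only depended on the fractions asked for. With 2 or more of a side they were 135 and 114, with no call in fraction 1 14 and 24, and with both S288C replicates 12 and 15. Without single fractions they ranged from 42 to 82 and from 45 to 76, where the rule is looser and could only raise them. The mean difference over ORFs compared was -0.576 nt, where the median was 0. The difference of fraction medians ranged from -0.667 to -0.167 nt. The share at the S288C TL-seq length turned to 0.0561 percentage points higher in fractions 2 to 4 by exact length (exact permutation p = 0.9), against -1.57 within 10 nt. Without single fractions the Sigma and fraction 1 differences by exact length could not change direction, since the sides did not overlap in either measure. No paired analysis was possible because the sides share no replicate numbers. Depth behind a length is unknown, which limits every missing call.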
